A study of Mus musculus with 32 samples.

Results

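The comparison described here was the hepatic response to a 16 h fast in MCAD-KO mice on the high-fat diet (KO HF). MCAD-KO mice carry a knockout of Acadm, the gene of medium-chain acyl-CoA dehydrogenase. This enzyme carries out the first step of beta-oxidation for fatty acids of medium chain length. The members were chosen by genotype, diet and nutritional state: 4 fed mice were set against 3 fasted mice, which makes 7 of the 32 mice of the series. A further KO HF fasted mouse, replicate 4, was left out because its library had the profile of heart.

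The series measured liver mRNA by 3′-end sequencing in 8 groups of 4 mice, wild type (WT) or KO, on low-fat (LF) or high-fat (HF) diet, fed or fasted. All 7 mice were males of the Acadm-knockout line on a C57BL/6J background and had received the high-fat diet, with palm oil as its main fat, for 6 weeks. Fed mice stayed on the diet until they were killed in the morning, and fasted mice had been without food for 16 h, which covered the dark phase. The labelled ages, whose unit is not given, were 10, 10, 11.5 and 10.5 in fed mice 1 to 4 and 10, 11.5 and 11.5 in fasted mice 1 to 3. In the WT HF and KO LF mice, with which the response is compared below, labelled ages spread more widely. Some WT HF mice were younger than the 7 mice, and some mice of both genotypes were older. The paper describes the line as a knockout and names no tissue to which it was limited. RNA came from whole liver rather than from isolated hepatocytes. Numbering in the text follows the replicate number of each group and does not link a fed mouse to a fasted one.

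During a fast the liver takes up fatty acids released by adipose tissue, oxidizes them in mitochondria and peroxisomes and turns part of the acetyl-CoA into ketone bodies, while glucose is made from lactate, glycerol and amino acids. The nuclear receptor PPARα induces many genes of fatty acid oxidation in this state, and loss of the insulin signal lowers the activity of SREBP-1c, which drives fatty acid synthesis. Genes of cholesterol synthesis are controlled by the related factor SREBP-2. On a high-fat diet the fed liver already receives much of its fat from food.

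Total counts in the 7 libraries ranged from 2416391 to 3833506, so that 3 counts, used as the floor of detection, correspond to 0.817 to 1.21 CPM, that is, counts scaled to a common library size. Of 20076 genes in the table, 11631 had enough counts to be tested. Acadm (chr3:153922357-153944632, GRCm38) checked the genotype labels: it ranged from 9.04 to 37.3 CPM in the 16 KO mice and from 191 to 753 CPM in the 16 WT mice. In the 7 mice the remaining Acadm signal was 14.4, 10.4, 13.9 and 9.04 CPM in fed mice 1 to 4 and 18.8, 27.4 and 25.6 CPM in fasted mice 1 to 3. The fasted mice all lay above the fed mice, but the difference did not pass the test (log2 fold change 1.0 ± 0.26 SE, edgeR adjusted p = 0.0858).

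Some libraries stood apart. Summed over 12 heart muscle genes such as Myh6 and Tnnt2, fasted mouse 4 had 36059 CPM against 0 to 246 CPM in the other 31 mice of the series, whereas its 9 hepatocyte genes summed to 672 CPM against 37072 to 62426 CPM in the 7 mice. The hepatocyte genes were thus high in all 7 mice and low in the one left out. Fed mouse 1 carried RNA of other organs: its 14 acinar pancreas genes summed to 2847 CPM (9.93 to 39.4 in the other 6 mice), its 12 skeletal muscle genes to 1844 CPM (1.21 to 46.6) and its 8 adrenal cortex genes to 41.7 CPM (0.342 to 5.72). Among the defining markers, 1, 0 and 1 of these genes were at 0 in fed mouse 1, against 10 to 12, 8 to 10 and 5 to 7 in the fasted mice. In fed mice 2 to 4 the ranges were 4 to 11, 2 to 10 and 5 to 7. Fasted mouse 3 had an acute-phase profile, with 36190 CPM over 21 acute-phase genes against 15306 to 18347 CPM in the other 6 mice. It was highest of the 7 mice in 17 of these 21 genes, and its Saa1, a serum amyloid A protein made in inflammation, stood at 1694 CPM against 72.9 to 243 CPM. No gene of the marker lists passed the fasting test.

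**Figure D1:**
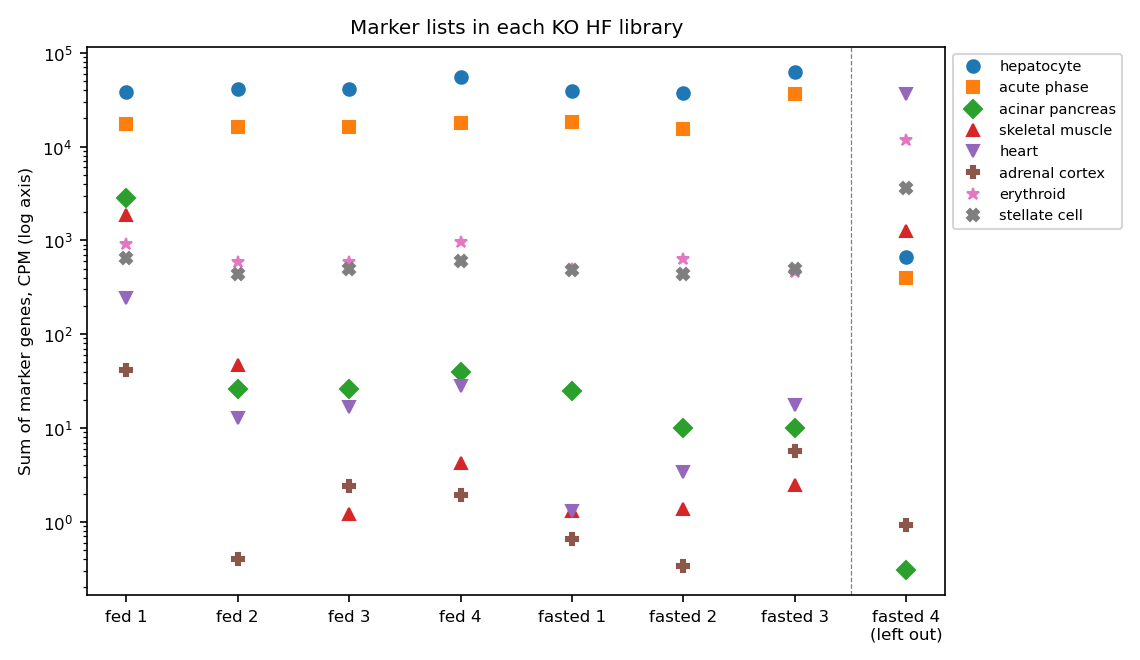
Summed CPM (log axis) of marker genes of hepatocytes, other tissues and the acute phase for each KO HF library, with 1 symbol a list. Fed mouse 1 stands out for pancreas (2847 CPM), muscle (1844 CPM) and adrenal cortex (41.7 CPM), fasted mouse 3 for the acute phase (36190 CPM), and fasted mouse 4, left out of the comparison, for heart (36059 CPM).

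The first question was which transcripts differed between fasted and fed KO HF livers. At a Benjamini-Hochberg adjusted p below 0.05 in edgeR's quasi-likelihood test, 16 of 11631 genes passed (0.138%), of which 9 were higher in the fasted mice (0.0774%) and 7 lower (0.0602%). The higher genes act in fatty acid oxidation (Cyp4a10, Cyp4a31, Slc27a2, Slc25a20), acyl-CoA hydrolysis (Acot1), metal binding (Mt1, Mt2), methionine use (Mat1a) and ganglioside synthesis (St3gal5). The lower genes act in fatty acid and sterol synthesis (Acly, Slc25a1, Acat2, Sc5d), in bile salt export (Abcb11), in retinoid metabolism (Rdh11) and, for Cyb5b, as a cytochrome b5 of the outer mitochondrial membrane. In bulk liver, fewer cells of a type and less RNA per cell cannot be told apart. For all 16 genes no fasted mouse overlapped any fed mouse, a pattern that was found over all genes tested in 624 upward (5.36%) and 599 downward (5.15%).

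The number of calls depended on single mice. The direction of the 16 genes did not, but they were chosen from these same mice and separate the groups. Their sign could therefore hardly change, and its constancy is no independent support. Without fasted mouse 1 the count was 53, without fed mouse 1 it was 11, and without fasted mouse 2, fasted mouse 3, fed mouse 2, fed mouse 3 or fed mouse 4 it was 0 in each case, with 563 to 860 genes whose p before adjustment was below 0.05 in these edgeR fits, against 793 (6.82%) with all 7 mice. Without both fed mouse 1 and fasted mouse 3 the count was 0, and 591 genes were below 0.05 before adjustment. DESeq2 called 87 genes and limma voom 24, which included all 16 and 14 of the 16 respectively. The 16 genes kept their sign in every one of these fits. Within sequencing lane 7 (2 fed and 2 fasted mice) and lane 8 (2 fed and 1 fasted) all 16 also went the same way without overlap. This was fixed in advance, because these genes separate the groups over all 7 mice, and is no test of the lanes. With 3 against 4 mice, an exact two-sided permutation test of a single gene has 35 arrangements and cannot go below p = 0.0571, so none is given.

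**Figure D2:**
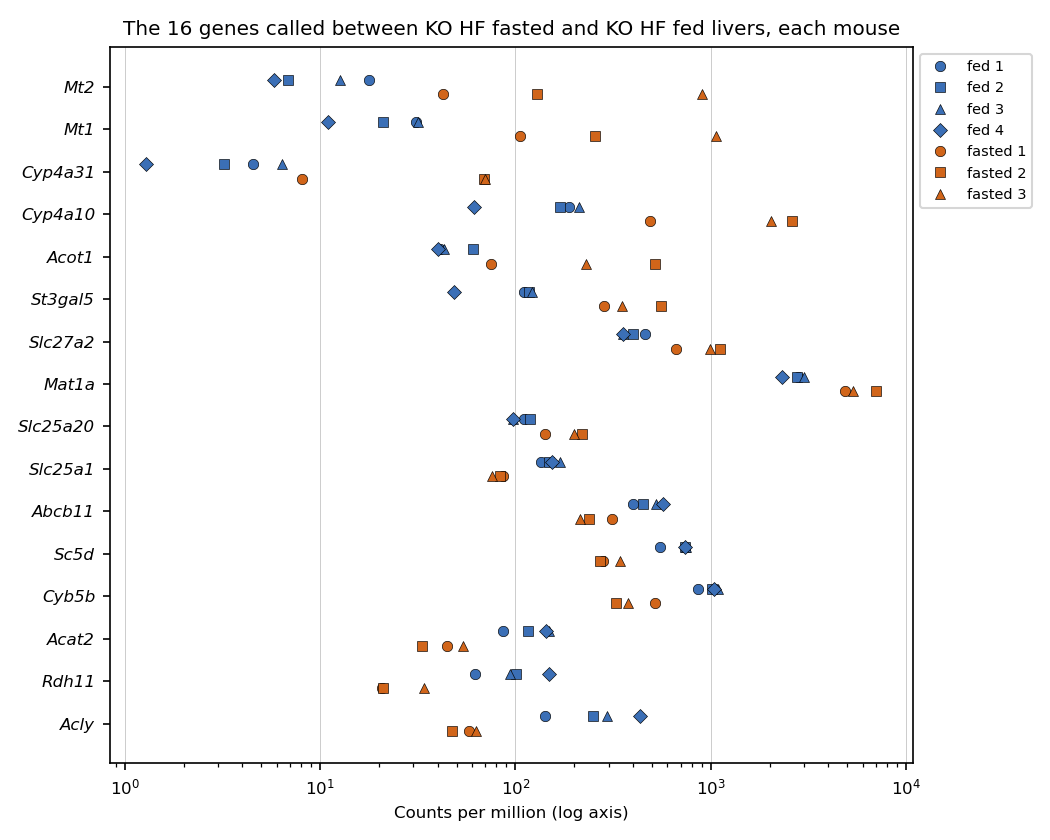
CPM (log axis) of the 16 genes that passed the fasting test, 1 line a gene, with a blue point for each fed (n = 4) and an orange point for each fasted (n = 3) KO HF mouse. The groups are separate for each gene, and fasted mouse 1 lies nearest to the fed mice in Cyp4a10 (488 CPM), Acot1 (75.0 CPM) and Slc27a2 (665 CPM).

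Of the 41 genes of fatty acid oxidation tested, 4 passed the test as higher in the fasted livers. Of these, 3 were in the peroxisomal and microsomal pathways and 1 in the mitochondrial pathway. Of 20 genes of peroxisomal and microsomal oxidation tested, 3 passed as higher and none as lower, against 0.0774% and 0.0602% over all genes. All 20 log2 fold changes were positive. In 8, all fasted mice exceeded all fed mice (5.36% over all genes). The median log2 fold change of the list was 0.87, against 0.00 over all genes. Cyp4a10 (chr4:115518264-115533649), a microsomal omega-hydroxylase of fatty acids and a classical PPARα target, had 187, 170, 211 and 61.3 CPM in fed mice 1 to 4 and 488, 2611 and 2024 CPM in fasted mice 1 to 3. Fasted mice 2 and 3 were thus far above fasted mouse 1, which was itself above every fed mouse. Cyp4a10 rose with a log2 fold change of 3.44 ± 0.58 SE (edgeR adjusted p = 0.0186). Its neighbour Cyp4a31 (chr4:115563649-115579015), another omega-hydroxylase, had 4.56, 3.21, 6.35 and 1.29 CPM in the fed and 8.11, 68.8 and 69.7 CPM in the fasted mice (log2 fold change 3.64 ± 0.72, edgeR adjusted p = 0.0330). These were 13, 8, 21 and 4 counts fed and 25, 201 and 256 counts fasted. The separation of fasted mouse 1 from the fed mice thus rested on few reads. Cyp4a14, with 312, 801, 924 and 91.6 CPM fed and 1119, 12091 and 7807 CPM fasted, showed no overlap either, but did not pass (3.72 ± 1.02, edgeR adjusted p = 0.165). The genes of this Cyp4a cluster are close copies of each other, so the split of reads among them is uncertain.

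Slc27a2 (chr2:126552407-126588243), an acyl-CoA synthetase and fatty acid transport protein of peroxisomes and the endoplasmic reticulum, was measured at 462, 402, 357 and 357 CPM in the fed and 665, 1116 and 987 CPM in the fasted mice. It rose by 1.22 ± 0.23 on the log2 scale (edgeR adjusted p = 0.0186). Among the other peroxisomal enzymes, Ehhadh, the bifunctional enzyme of peroxisomal beta-oxidation, had its lowest fasted value in mouse 1, at 103 CPM, and stood at 436 and 481 CPM in fasted mice 2 and 3 (fed 50.3 to 124 CPM, edgeR adjusted p = 0.264).

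In the mitochondrial pathway 1 of 21 genes passed as higher (0.0774% over all genes) and none as lower. The log2 fold change was positive in 18 and negative in 3, with a median of 0.53. The one called gene was Slc25a20 (chr9:108662088-108684641), the carrier that exchanges acylcarnitine for carnitine across the inner mitochondrial membrane. It had 110, 119, 96.7 and 97.5 CPM in the fed mice and 142, 219 and 199 CPM in the fasted mice (log2 fold change 0.82 ± 0.17, edgeR adjusted p = 0.0330). Cpt1a, which commits fatty acids to mitochondrial import, reached 541 and 649 CPM in fasted mice 2 and 3, but fasted mouse 1, at 239 CPM, was within the fed range of 212 to 256 CPM. Its log2 fold change of 1.04 ± 0.24 missed the threshold (edgeR adjusted p = 0.0508), as did that of Eci2, an enoyl-CoA isomerase (0.83 ± 0.19, edgeR adjusted p = 0.0508). Of the acyl-CoA dehydrogenases that share substrates with the missing enzyme, Acadl was at 146 to 178 CPM fed and 172, 225 and 238 CPM fasted (0.37 ± 0.17, edgeR adjusted p = 0.672).

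**Figure D3:**
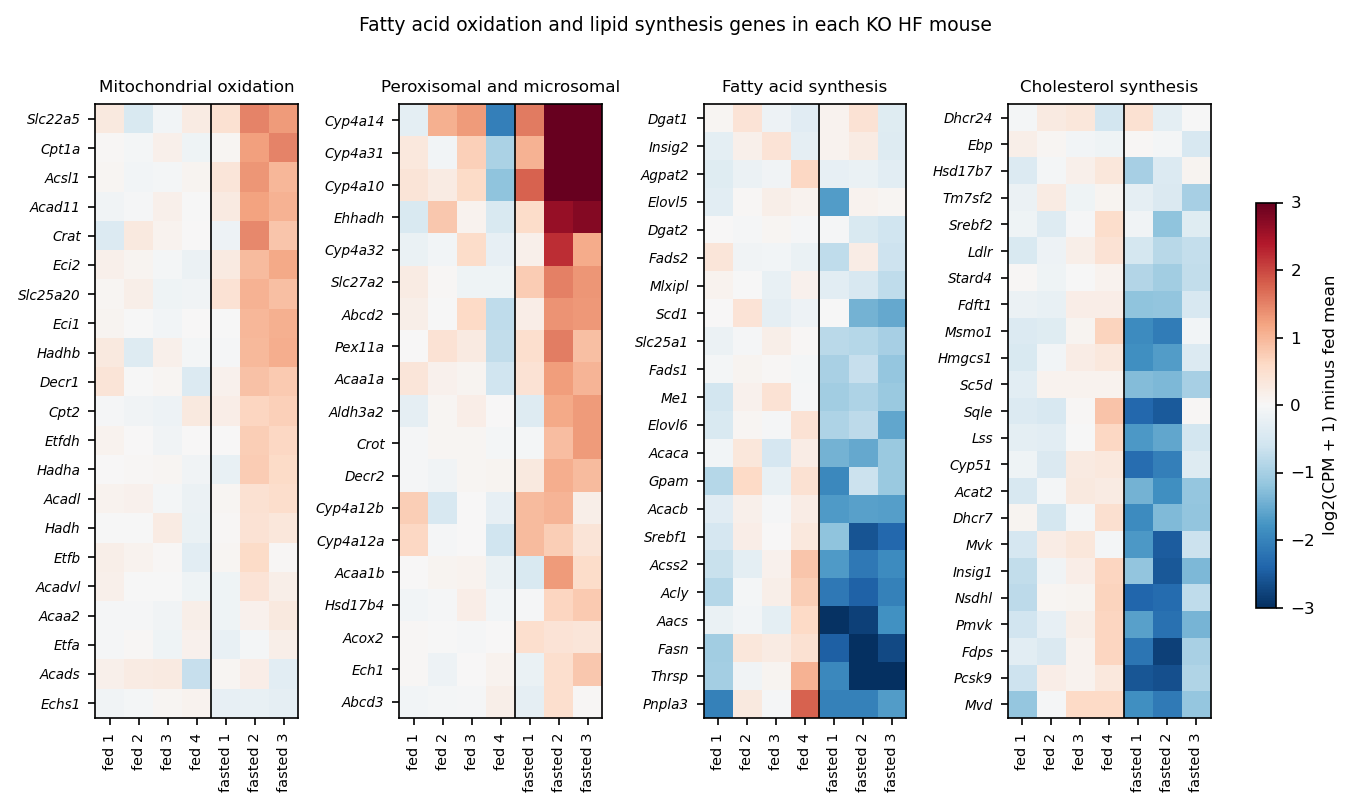
Heat map of log2(CPM + 1) minus the mean of the fed mice in each KO HF mouse (columns) for genes of the fatty acid oxidation and of the fatty acid and cholesterol synthesis lists, in red where higher and in blue where lower, with the colour scale ending at ±3. Fasted mouse 1 is near the fed level for mitochondrial oxidation (median 0.05), where fasted mice 2 and 3 reach 0.77 and 0.71, while all 3 mice lie low for the synthesis genes.

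The 3 fasted mice differed in how far their oxidation genes had moved. Of the 41 genes of both oxidation lists, fasted mouse 1 was above the range of the fed mice in 15, within it in 15 and below it in 11. For fasted mouse 2 the numbers were 37, 3 and 1, and for fasted mouse 3 they were 35, 5 and 1. The median deviation from the fed mean was 0.05, 0.77 and 0.71 on the log2 scale for the mitochondrial list in fasted mice 1, 2 and 3, and 0.36, 1.21 and 1.07 for the peroxisomal and microsomal list. Over all genes tested, the share outside the fed range was of like size in the 3 mice, at 41.0%, 45.4% and 45.4%. For the 46 genes of fatty acid and cholesterol synthesis, in contrast, 37, 37 and 35 were below the fed range in fasted mice 1, 2 and 3. Fasted mouse 1 thus had low synthesis transcripts together with mitochondrial oxidation transcripts near the fed level, while of the 20 peroxisomal and microsomal genes it was above the fed range in 10, within it in 4 and below it in 6.

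Acyl-CoA thioesterases, which release free fatty acids and CoA from acyl-CoAs, were one of the gene groups that the study examined in these livers, so the list is not independent of the data. Of 12 members tested (15 listed), Acot1 passed as higher and none as lower. The log2 fold change was positive in 8 and negative in 4, with a median of 0.50. Acot1 (chr12:84009490-84018371), the cytosolic long-chain enzyme, had 41.0, 60.3, 43.2 and 40.0 CPM fed and 75.0, 517 and 229 CPM fasted (2.57 ± 0.53, edgeR adjusted p = 0.0459). Its mitochondrial relative Acot2 had 10.5, 10.0, 12.1 and 3.23 CPM fed and 8.76, 67.1 and 51.5 CPM fasted. The fasted mouse with the lowest value, mouse 1, again lay among the fed mice, and the difference did not pass (2.24 ± 0.86, edgeR adjusted p = 0.495). Acot1 and Acot2 are near-identical in much of their sequence, so that reads may have been lost or split between them.

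None of the 6 genes of ketone body synthesis and export passed the test, with a median log2 fold change of 0.38. Slc16a1, a monocarboxylate transporter that carries ketone bodies and lactate, was at 42.8, 44.6, 39.6 and 47.1 CPM in the fed and 53.5, 91.8 and 75.7 CPM in the fasted mice. All fasted mice were above all fed mice, but the difference did not pass (0.76 ± 0.22, edgeR adjusted p = 0.17). Among the 12 secreted signals of fasting (median 0.71) none passed. Fgf21, a hormone induced through PPARα, had 5.26, 11.7, 9.67 and 2.90 CPM fed and 7.14, 45.9 and 36.5 CPM fasted (edgeR adjusted p = 0.747). Angptl4, an inhibitor of lipoprotein lipase, showed the same order, with 63.3, 193 and 165 CPM in fasted mice 1, 2 and 3 and 31.6 to 76.2 CPM in the fed mice (edgeR adjusted p = 0.207). Igfbp1, which binds IGF1 and is repressed by insulin, was highest in fasted mouse 3, the mouse with the acute-phase profile: 101, 150 and 562 CPM against 39.0 to 85.6 CPM fed (edgeR adjusted p = 0.30). Whether the acute-phase state had a part in this value was not tested.

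**Figure D4:**
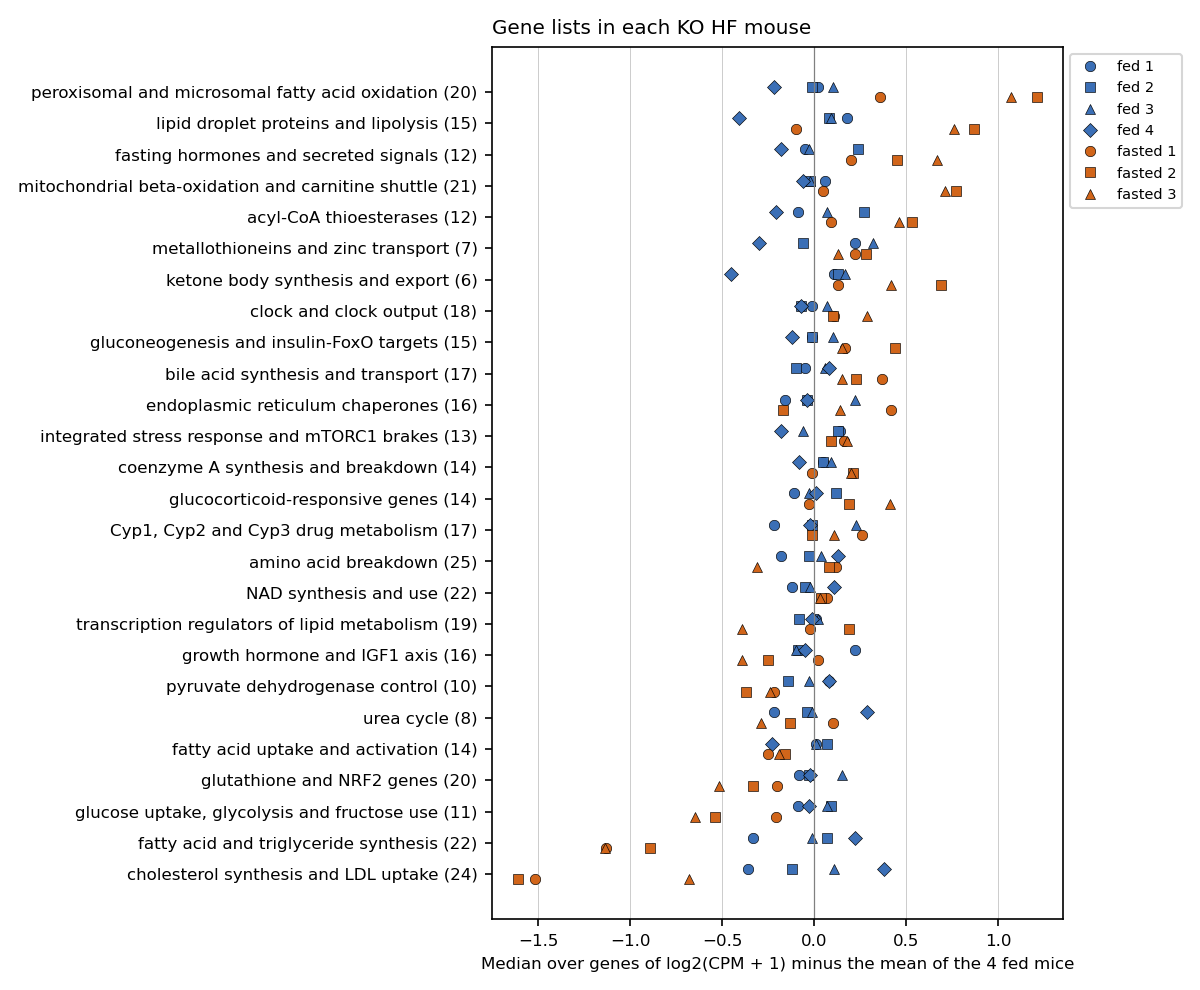
Median log2 deviation from the fed mean over the tested genes of each pathway list, 1 point per KO HF mouse (fed blue, n = 4; fasted orange, n = 3), on the log2(CPM + 1) scale, with the number of genes after each name. The synthesis lists lie below the fed mice in all 3 fasted mice (-1.13, -0.89 and -1.14 for fatty acid synthesis), whereas fasted mouse 1 sits with the fed mice for the mitochondrial oxidation and lipid droplet lists.

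Metallothioneins had the largest fold changes of the genes called. Mt1 and Mt2 encode small cysteine-rich proteins that bind zinc and copper and are induced by zinc, glucocorticoids and inflammation. Mt1 (chr8:94179082-94180327) had 30.8, 20.9, 31.7 and 11.0 CPM in fed mice 1 to 4 and 106, 255 and 1069 CPM in fasted mice 1 to 3. Mt2 (chr8:94172664-94173568) had 17.9, 6.83, 12.7 and 5.81 CPM in the fed and 42.8, 129 and 900 CPM in the fasted mice. For both genes the order of the fasted mice was 1, 2, 3, and mouse 3, with the acute-phase profile, was far above the others. Both rose, by 4.33 ± 0.84 (Mt1) and 5.04 ± 0.99 (Mt2) on the log2 scale (edgeR adjusted p = 0.0330 for each). Over the alternative fits, which include those without fasted mouse 3, the log2 fold changes ranged from 2.93 to 4.80 for Mt1 and from 2.97 to 5.56 for Mt2. The other 5 genes of the list, all members of zinc transporter families, gave no call, and the median of the 7 was 0.48. Slc39a14, a zinc importer that is induced in inflammation, was at 69.4 to 91.5 CPM fed and 68.8, 104 and 158 CPM fasted, again highest in mouse 3 (edgeR adjusted p = 0.571).

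The promoters of both genes, which lie side by side and rose together, are shown because they hold the core letters of the metal response element. The stretches below come from the RefSeq annotation of GRCm38.p6, plus strand, at chr8:94172380-94172589 (Mt2) and chr8:94179051-94179087 (Mt1), and capitals mark each match to TGCACNC or TGCGCNC, searched on both strands within 250 bases before the start site. A match on the minus strand is printed as its reverse complement.
Mt2: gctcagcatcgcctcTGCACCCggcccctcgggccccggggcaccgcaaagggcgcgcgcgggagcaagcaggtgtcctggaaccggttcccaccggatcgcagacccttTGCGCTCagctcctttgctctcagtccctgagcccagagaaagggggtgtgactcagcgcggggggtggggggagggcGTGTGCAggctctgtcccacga
Mt1: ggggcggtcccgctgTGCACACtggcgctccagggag
Mt2 held 3 matches, starting at -223, -128 and -50, and Mt1 held 1, at -23. Such short letters are common: 21.4% of 32851 mouse promoters of this length held at least 1 match and 5.17% held 2 or more, and the matches say nothing by themselves about binding.

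Among the 46 genes for the synthesis of fatty acids and cholesterol, 4 passed the test as lower in the fasted livers. Of 22 genes of fatty acid and triglyceride synthesis, 2 passed as lower (0.0602% over all genes) and none as higher. The log2 fold change was negative in 21 and positive in 1, with a median of -1.09. In 13 all fasted mice were below all fed mice, against 5.15% over all genes. Acly (chr11:100476353-100528000), ATP citrate lyase, which makes cytosolic acetyl-CoA from citrate, had 142, 250, 294 and 434 CPM in the fed mice and 57.8, 47.6 and 62.7 CPM in the fasted mice. The fed mice spread over a wide range, with the mouse that carried other organs' RNA lowest, whereas the fasted mice were close together. Acly fell by 2.32 ± 0.46 on the log2 scale (edgeR adjusted p = 0.0330). Slc25a1 (chr16:17925223-17928219), the carrier that brings citrate out of mitochondria, fell from 135, 149, 170 and 154 CPM to 86.3, 83.2 and 75.7 CPM (-0.89 ± 0.18, edgeR adjusted p = 0.0330). Fasn, fatty acid synthase, was at 297, 774, 727 and 838 CPM fed and 111, 55.1 and 93.4 CPM fasted. Its log2 fold change of -2.93 ± 0.71 was larger in size than that of Acly, but did not pass (edgeR adjusted p = 0.0858). Srebf1, which encodes SREBP-1, was at 110 to 195 CPM fed and 67.2, 25.3 and 30 CPM fasted, and did not pass either (-1.98 ± 0.47, edgeR adjusted p = 0.0858). Thrsp, a lipogenic protein responsive to thyroid hormone and carbohydrate, had 164, 307, 354 and 682 CPM fed and 86.6, 17.8 and 17.4 CPM fasted (-3.22 ± 1.04, edgeR adjusted p = 0.30). The groups of Fasn, Srebf1 and Thrsp did not overlap. Scd1, the stearoyl-CoA desaturase, had a log2 fold change of -0.84 and an edgeR adjusted p of 0.942.

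Of 24 genes of cholesterol synthesis and LDL uptake tested (25 listed), 2 passed as lower (0.0602% over all genes) and none as higher. The log2 fold change was negative in 23 and positive in 1, with a median of -1.23. In 15 all fasted mice were below all fed mice, against 5.15% over all genes. Acat2 (chr17:12942890-12960747), the cytosolic thiolase at the start of the pathway, fell from 86.2, 116, 149 and 144 CPM to 44.8, 33.2 and 53.9 CPM (-1.49 ± 0.30, edgeR adjusted p = 0.0330). Sc5d (chr9:42251595-42264256), a sterol desaturase near its end, fell from 552, 741, 745 and 740 CPM to 280, 271 and 343 CPM (-1.22 ± 0.26, edgeR adjusted p = 0.0330). In both genes fed mouse 1 was the lowest of the fed mice and still above every fasted mouse. Fasted mouse 3 was the least reduced for this list, with a median deviation from the fed mean of -0.68 against -1.52 and -1.61 in fasted mice 1 and 2. Cyp51, a demethylase of the pathway, shows this order at 38.9, 45.9 and 147 CPM against 141 to 239 CPM fed. Without fed mouse 1 and fasted mouse 3, the median log2 fold change of the list was -1.86.

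The sterol regulatory element, searched as TCACNCCAC on both strands, was found in 2 of the 35 promoters available for the 47 genes of both synthesis lists, those of Hmgcs1 and Mlxipl, and in 1.05% of all promoters. DR1, the element of PPARα, was also searched. It was found in 0 of the 30 promoters available for the 41 oxidation genes and in 0.0335% of all promoters. So rare a match makes its absence there say little. The site of Hmgcs1, the cytosolic HMG-CoA synthase, starts at -137 (RefSeq, GRCm38.p6, chr13:119690199-119690237, plus strand) and is in capitals.
Hmgcs1: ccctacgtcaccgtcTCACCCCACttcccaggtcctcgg
Hmgcs1 itself was at 488, 636, 783 and 833 CPM in the fed mice and 188, 209 and 502 CPM in the fasted mice, with fasted mouse 3 above the lowest fed mouse (-1.19 ± 0.43, edgeR adjusted p = 0.412).

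Genes of glucose use and production gave no calls. Of 11 genes of glucose uptake, glycolysis and fructose use tested (12 listed), 5 were lower in all fasted than in all fed mice. The share over all genes was 5.15%, and the median log2 fold change of the list was -0.68. Pklr, the liver pyruvate kinase, was at 128, 148, 126 and 137 CPM fed and 56.8, 14.7 and 36.2 CPM fasted. Fasted mouse 1 had the highest level of the fasted mice, and the difference did not pass (-1.90 ± 0.57, edgeR adjusted p = 0.234). Among 15 genes of gluconeogenesis and insulin-FoxO targets, the fasted mice were all above the fed mice in 5 (5.36% over all genes). Pck1, the cytosolic PEP carboxykinase, had 2227, 2069, 2163 and 1671 CPM fed and 3670, 11431 and 6712 CPM fasted (1.84 ± 0.49, edgeR adjusted p = 0.143). G6pc, the glucose-6-phosphatase of the last step, did not separate the groups, at 248, 480, 204 and 287 CPM fed and 255, 406 and 159 CPM fasted (-0.16, edgeR adjusted p = 1.0). Pdk4, the kinase that switches off pyruvate dehydrogenase, was low in all mice, at 25.2, 4.42, 8.46 and 8.71 CPM fed and 5.52, 7.53 and 19.6 CPM fasted (-0.09, edgeR adjusted p = 1.0). The highest fed value was in fed mouse 1, which carried muscle RNA, and whether that RNA had a part in it was not tested. Ppargc1a, a coactivator of gluconeogenic and oxidative genes, had a log2 fold change of -0.12 (edgeR adjusted p = 1.0).

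The remaining 5 called genes fall in several pathways. Mat1a (chr14:41105035-41124412), the liver enzyme that makes S-adenosylmethionine, rose from 2805, 2757, 3003 and 2324 CPM to 4836, 7018 and 5327 CPM (1.07 ± 0.22, edgeR adjusted p = 0.0330). St3gal5 (chr6:72097592-72154571), which makes the ganglioside GM3, rose from 110, 118, 121 and 48.4 CPM to 284, 556 and 353 CPM (2.0 ± 0.35, edgeR adjusted p = 0.0186). In both, as in Cyp4a10, fed mouse 4 had the lowest value and fasted mouse 2 the highest. Abcb11 (chr2:69238282-69342616), the bile salt export pump, fell from 398, 448, 522 and 571 CPM to 311, 239 and 215 CPM (-0.93 ± 0.20, edgeR adjusted p = 0.0330). It was the single call among 17 genes of bile acid synthesis and transport, whose median was 0.23, and Cyp7a1, the rate-limiting enzyme of bile acid synthesis, gave 0.92 (edgeR adjusted p = 0.898). Cyb5b (chr8:107150640-107187471) fell from 858, 1014, 1094 and 1035 CPM to 517, 328 and 379 CPM (-1.29 ± 0.26, edgeR adjusted p = 0.0330). Rdh11 (chr12:79174337-79192293), a microsomal retinal reductase, fell from 62.4, 101, 94.3 and 149 CPM to 20.8, 20.9 and 34.1 CPM (-2.01 ± 0.42, edgeR adjusted p = 0.0497).

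The other lists contained no gene that passed. For lipid droplet proteins and lipolysis (15 tested of 16 listed) the median log2 fold change was 0.71. Plin2, the coat protein of hepatic lipid droplets, was at 239 to 279 CPM fed and 186, 617 and 537 CPM fasted (edgeR adjusted p = 0.723), and Cidec, a droplet fusion protein, at 0.968 to 10.9 CPM fed and 3.25, 33.6 and 48.5 CPM fasted (edgeR adjusted p = 0.733). In both, fasted mouse 1 was at the fed level and fasted mice 2 and 3 were above it. For glutathione and NRF2 genes (20 of 24) the median was -0.34, and 6 genes, all glutathione S-transferases, were below the fed range in every fasted mouse (5.15% over all genes). Gstt2, another glutathione S-transferase, was above it in every fasted mouse, at 76.9, 182 and 98.6 CPM against 28.1 to 74.6 CPM fed (1.06 ± 0.35, edgeR adjusted p = 0.30). The one with the smallest p was Gstm6, at 88.4 to 119 CPM fed and 56.1, 37.3 and 25.9 CPM fasted (-1.32 ± 0.30, edgeR adjusted p = 0.0577).

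The medians of the lists for coenzyme A synthesis and breakdown (14 of 15 tested), NAD synthesis and use (22 of 23), amino acid breakdown (25), the urea cycle (8), glucocorticoid-responsive genes (14), clock genes (18 of 19), the growth hormone and IGF1 axis (16), drug-metabolizing Cyp genes (17 of 24), the integrated stress response and mTORC1 brakes (13 of 15), fatty acid uptake and activation (14), pyruvate dehydrogenase control (10 of 11) and lipid regulators (19) all lay between -0.25 and 0.27. Named members of these lists that did not pass were Vnn1, the pantetheinase that releases cysteamine (1.80, edgeR adjusted p = 0.231), Pank1, the pantothenate kinase that starts CoA synthesis (0.47, 0.713), and Nampt, the rate-limiting enzyme of NAD salvage (0.51, 0.756). Acnat2, an acyltransferase that conjugates fatty acids or bile acids to amino acids, gave 0.64 (0.783). The translation repressors Eif4ebp1 and Eif4ebp2, targets of mTORC1, had log2 fold changes of 0.22 (0.988) and 0.17 (0.989). Fkbp5, a glucocorticoid-induced co-chaperone, gave 1.5 (0.449) without overlap of the groups, and Igf1, the growth factor that the liver secretes under growth hormone, gave -0.05 (1.0). The second value of each pair is the edgeR adjusted p.

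The next question was whether the fasting response of KO HF mice differed from that of WT mice on the same diet. No gene passed the test of the difference between both responses (0 of 11631, 0%; edgeR, smallest adjusted p = 0.999), while 343 genes had an unadjusted p below 0.05 (2.95%). DESeq2 and limma voom also called 0 genes, with 372 and 354 at an unadjusted p below 0.05. The 16 genes called in KO HF had the same sign in WT HF, where the response was smaller in size in 14 of them. Genes chosen for passing in KO HF tend to have large estimates there, so a smaller response in WT HF is favoured by the choice. In KO LF the response of the same 16 genes was larger in size than in KO HF in 14. For the mitochondrial, the peroxisomal and microsomal, the fatty acid synthesis and the cholesterol synthesis lists, the medians were 0.63, 0.78, -1.19 and -1.22 in WT HF, beside 0.53, 0.87, -1.09 and -1.23 in KO HF. The 3 genes with the smallest p for the difference were Cpb1, Prss2 and Ctrb1, digestive enzymes of the pancreas. They stood at 624, 501 and 413 CPM in fed mouse 1, the library with pancreas RNA. Their highest WT HF fasted values were 4167, 3394 and 2636 CPM beside group means of 1042, 849 and 659 CPM, so each mean rested on a single mouse. The acinar pancreas sums of the WT HF fasted mice ranged from 17.4 to 19309 CPM. High values of these genes thus occurred in libraries of both genotypes. The genes are themselves members of the pancreas marker list, so they follow its sum by construction. They are not given as a response of liver. With 3 and 4 KO mice against 4 and 4 WT mice, a p that misses the threshold does not show that both genotypes responded alike.

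The last question was whether diet changed the response within the KO genotype. Between KO HF and KO LF mice, 36 genes passed the test of the difference (0.31%), 25 with a higher (0.215%) and 11 with a lower value in KO HF minus KO LF, and 1137 had an unadjusted p below 0.05 (9.78%). All 25 had a negative response in KO LF and all 11 a positive one, and in 35 of the 36 the KO LF response was the larger in size. In KO HF itself the fed and fasted groups overlapped in 28 of the 36, and only Mat1a passed the fasting test there. The response of WT HF mice lay between both KO responses in 30. The KO HF mice enter both this contrast and the fasting test above, which therefore are not independent. The count rested on single mice: it was 0 without fasted mouse 1, 6 without fasted mouse 3, 54 without fasted mouse 2, 16 to 20 without any 1 of the fed mice, and 0 without both fed mouse 1 and fasted mouse 3 (889 and 956 genes below 0.05 before adjustment in the edgeR fits without a call). Without KO LF fed mouse 1 or 4 it was 15 or 23. All 36 genes kept their sign in these fits, but they were chosen from these same mice, so this is no independent support. KO LF fasted libraries also held adrenal RNA, with adrenal cortex sums of 0.444 to 296 CPM against 0 to 0.424 CPM in KO LF fed mice, and its part in the difference was not tested.

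Among the genes with a lower value, Mat1a had the smallest p. Its KO LF level went from 1957 ± 407 CPM fed to 14600 ± 2556 CPM fasted (mean ± SD, n = 4 each), and its KO HF level from 2722 ± 286 (n = 4) to 5727 ± 1145 CPM (n = 3). The difference of the responses was -1.83 ± 0.31 on the log2 scale (edgeR adjusted p = 0.00934). Plin5, which ties lipid droplets to mitochondria, was at 48.4, 55.9, 65.0 and 34.2 CPM fed and 74.0, 104 and 56.9 CPM fasted in KO HF, with overlap, and went from 41.9 ± 2.56 to 246 ± 88.5 CPM in KO LF (difference -1.93 ± 0.38, edgeR adjusted p = 0.0128). Acot12, a cytosolic acetyl-CoA thioesterase, gave -1.18 (edgeR adjusted p = 0.0336) and Glrx, glutaredoxin, -1.48 (edgeR adjusted p = 0.0247). Khdrbs3, an RNA-binding protein, gave -1.75 (0.0307) and Wbp1l -1.03 (0.0342), of which Wbp1l was at 158 to 182 CPM fed and 163 to 178 CPM fasted in KO HF.

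The genes with a higher value (0.215% over all genes) included 6 of 16 chaperones and folding enzymes of the endoplasmic reticulum. All 16 had a higher value at an unadjusted p below 0.05, against 9.78% of all genes in either direction. The median difference was 1.48, against -0.02 over all genes. It arose from a median log2 fold change of -1.31 in KO LF beside 0.17 in KO HF, and the WT HF median was -0.30. The chaperones were not the only list with a difference. The median was -0.57 for mitochondrial oxidation, -0.78 for peroxisomal and microsomal oxidation and -1.08 for lipid droplet proteins. It was 0.85 for cholesterol synthesis and -0.18 for fatty acid synthesis. Pdia6 (chr12:17266545-17284770), a disulfide isomerase, was at 415, 467, 620 and 422 CPM in the fed and 516, 281 and 434 CPM in the fasted KO HF mice. These groups overlapped, while in KO LF the level went from 640 ± 61.2 to 161 ± 46.0 CPM. The difference of the responses was 1.77 ± 0.34 (edgeR adjusted p = 0.0118). The other 5 called members, chosen after their values were seen, were Hyou1 (2.72, edgeR adjusted p = 0.0169), Hsp90b1 (1.48, 0.0288), Sdf2l1 (3.60, 0.0342), Dnajb11 (1.48, 0.0389) and Calr (1.2, 0.0479), all residents of the endoplasmic reticulum that assist protein folding. Without fasted mouse 1, without fasted mouse 3 or without both fed mouse 1 and fasted mouse 3, none of the 16 passed, and all 16 differences stayed positive.

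**Figure D5:**
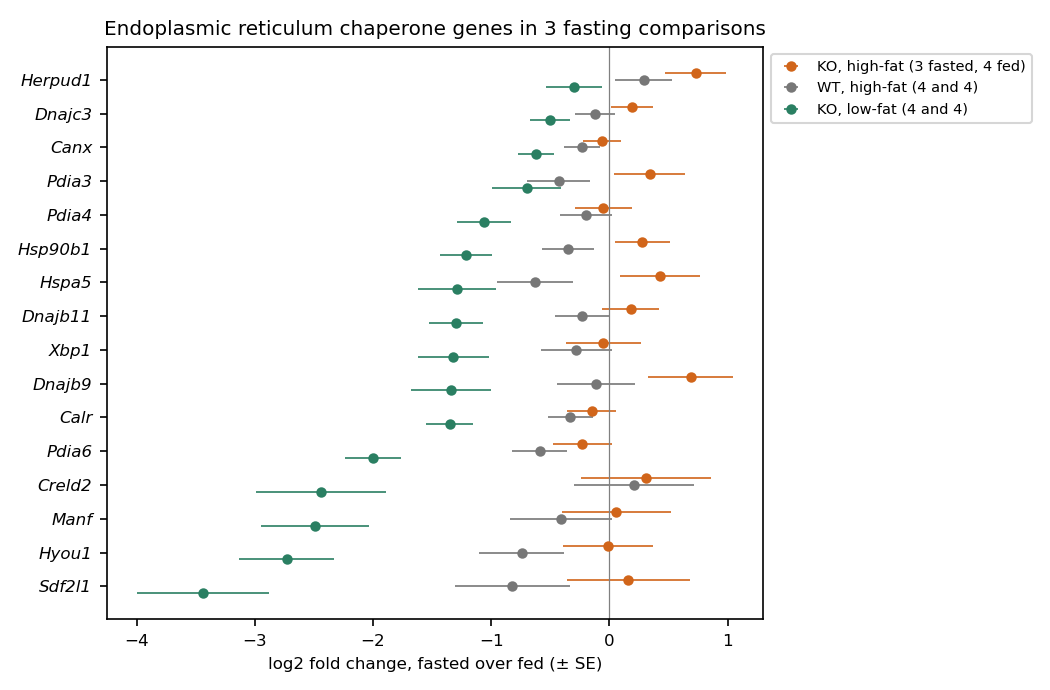
Log2 fold change, fasted over fed, with its SE, of 16 endoplasmic reticulum chaperones in KO HF, WT HF and KO LF mice, from the edgeR fit. KO LF values are all negative (median -1.31), KO HF values lie around 0 (median 0.17) and WT HF values lie between them for each gene (median -0.30).

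The endoplasmic reticulum stress element, CCAAT and CCACG with 9 bases between them, searched on both strands, was found in the 250 bases before the start site of 7 of the 14 chaperone genes with a promoter entry (Calr, Canx, Creld2, Dnajc3, Hsp90b1, Hspa5 and Pdia6). It was found in 37 of all 32851 promoters (0.113%). Of these, 3 are printed with the element and the spacer in capitals, from RefSeq GRCm38.p6: Pdia6 (chr12:17266476-17266524, plus strand), Hspa5, the chaperone BiP (chr2:34772010-34772058, plus strand), and Calr (chr8:84847060-84847108, minus strand), where the match is on the opposite strand and appears as its reverse complement.
Pdia6: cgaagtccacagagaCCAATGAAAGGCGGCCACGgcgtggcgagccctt
Hspa5: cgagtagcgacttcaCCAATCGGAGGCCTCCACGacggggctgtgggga
Calr: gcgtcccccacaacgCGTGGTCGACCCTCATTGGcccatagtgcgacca
The element starts at -98 in Pdia6, -65 in Hspa5 and -162 in Calr. Hspa5 had a difference of 1.72 between the responses and did not pass (edgeR adjusted p = 0.119). The match describes the letters of these windows and not the binding of a factor.

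Among the other genes with a higher value, Stard4 (chr18:33199355-33213862), a cholesterol carrier, had the smallest p. It went from 120 ± 17.6 to 15.3 ± 2.84 CPM in KO LF and was at 117, 104, 113 and 124 CPM fed and 61.3, 54.8 and 68.4 CPM fasted in KO HF, where its response was the same in sign and did not pass (edgeR adjusted p = 0.202). The difference was 2.05 ± 0.37 (edgeR adjusted p = 0.0111). Sec61b, a subunit of the channel that admits proteins to the endoplasmic reticulum, gave 1.95, Slc41a2, a magnesium transporter, 2.73, Entpd7, a nucleotide diphosphatase, 3.07, and Lasp1, an actin-binding protein, 1.15 (edgeR adjusted p = 0.0111 for each). Of these genes, Slc41a2 and Entpd7 had their highest KO HF value in fasted mouse 3, at 95.3 and 14.7 CPM, and Lasp1 had its highest in fasted mouse 1, at 323 CPM.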

How the data were processed

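Liver mRNA of 32 mice was sequenced as 3′ libraries with single reads of 50 bases. The authors aligned the reads to GRCm38 with HISAT 0.1.5, sorted them with SAMtools 1.2 and counted them per gene with HTSeq 0.6.1p1 in union mode, and deposited raw counts per gene. The methods and the file name different Ensembl releases. Symbols and positions were matched from GENCODE on GRCm38. Counts of 31 mice in 8 groups were fitted with edgeR 4.0.16 (R 4.3.3; TMM, filterByExpr with a minimum count of 10, robust quasi-likelihood), and contrasts were adjusted by Benjamini-Hochberg over 11631 genes. Each SE given with an edgeR log2 fold change was derived from the test. It is the size of the change divided by the square root of the F statistic. CPM per mouse use TMM-adjusted library sizes, and list deviations use a pseudocount of 1. The code was tested on simulated data. Totals of 2416391 to 3833506 counts set the floor of 3 counts, which covers counting error only. Replicates are separate mice per the labels. Members and lists were chosen with earlier results of these data known. Named genes were Acadm, the 8 called genes with the largest fold change per direction at a mean of 20 CPM or more without overlap, up to 4 called members a list, fixed fasting genes, and 6 per direction (3 where none passed) for each difference. Ehhadh, Eci2, Acadl, Slc16a1, Pklr, Slc39a14, Cyp51, Hmgcs1, Hspa5, Gstm6, Gstt2, Saa1 and the chaperones other than Pdia6 were chosen after their values were seen. Some listed genes enter the counts and medians but are not reported here by name. DESeq2 1.42.0, limma 3.58.1, other filters, scalings, blocks and left-out mice were alternatives. Promoters came from RefSeq.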

Additional observations from a re-analysis of the deposited data

Results flagged for a closer look

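In 14 of 99 values examined, the lowest or highest of the 4 fed mice stood far from the other 3 by Dixon's test, where chance gives about 1 in 20. Of these, 8 are the organ marker sums and pancreas genes of fed mouse 1, whose pancreas, muscle and adrenal RNA was known beforehand, and without these 8 the number is 6 of 91. Fed mouse 1 accounted for the heart (246 CPM), pancreas (2847 CPM), skeletal muscle (1844 CPM), adrenal cortex (41.7 CPM) and adrenal medulla (29.4 CPM) sums, for the pancreas genes Cpb1 (624 CPM), Prss2 (501 CPM) and Ctrb1 (413 CPM), for Sc5d (552 CPM, other fed mice 740 to 745) and for the median deviation of the growth hormone and IGF1 list (0.22, others -0.10 to -0.05). Fed mouse 4 stood low in St3gal5 (48.4 CPM, others 110 to 121) and in the ketone body (-0.45, others 0.11 to 0.17) and lipid droplet (-0.41, others 0.08 to 0.18) lists. Fed mouse 2 stood high in Acot1 (60.3 CPM, others 40.0 to 43.2). Over all 11631 genes, such a position was taken by fed mouse 1 in 225, fed mouse 2 in 178, fed mouse 3 in 114 and fed mouse 4 in 277.

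The fasting response differed between KO HF and KO LF mice in 36 genes by the edgeR test of the difference. For the genes named, the difference on the log2 scale was 2.05 for Stard4, 2.73 for Slc41a2, 1.15 for Lasp1, 3.07 for Entpd7, 1.95 for Sec61b and 1.77 for Pdia6, and -1.83 for Mat1a, -1.93 for Plin5, -1.48 for Glrx, -1.75 for Khdrbs3, -1.18 for Acot12 and -1.03 for Wbp1l.

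Outside the comparison, KO HF fasted mouse 4, labelled as liver, had 36059 CPM over 12 heart genes against at most 246 CPM in any other library.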

How the results depend on the processing

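Of the fasting calls in KO HF (16 genes), the count was 86 with the 7 mice alone, 61 with 30 mice, 39 with all 32 mice, 87 with DESeq2, 27 without a count filter, 27 with at least 10 counts in each mouse and 7 with age as a term. It was 0 in lane 7 alone and 7 in lane 8 alone, both chosen after seeing the data, and 0 without fed replicate 1 and fasted replicate 3. Leaving out 1 mouse gave 0 to 53. The replicate numbers did not pair the mice (correlations of deviations -0.0415, -0.0126 and -0.0778), and the replicate block gave 9 calls in place of 16, 29 in place of 36 for KO HF minus KO LF and 0 in both fits for KO HF minus WT HF. The KO HF minus KO LF count (36) was 60 with 30 mice, 0 with all 32 mice, 100 with DESeq2, 0 without fed replicate 1 and fasted replicate 3, and 0 to 54 when 1 KO HF or KO LF mouse was left out. The KO HF minus WT HF count stayed at 0 in every alternative run. The cause of these moves was not tested. In the same runs the 16 genes never changed sign (303 values), which follows largely from their choice in the same mice. Of 1116 values of named genes, 880 kept direction and side of the threshold, 192 were weaker, 29 stronger and 15 reversed. All that reversed were near 0 in the fit of 31 mice: Pdk4 (-0.09) gave 5.78 with 32 mice, 0.01 with limma voom, and -0.85 to 0.60 with 1 mouse left out (0.22 and 0.11 without fasted replicates 1 and 2, 0.60 without fed replicate 1). Ppargc1a (-0.12) gave 1.38 with 32 mice, -0.30 to 0.07 with 1 mouse left out (highest without fasted replicate 3) and 0.15 without fasted replicate 3 and fed replicate 1. G6pc (-0.16) gave -0.56 to 0.15 with 1 mouse left out (0.15 without fed replicate 2, 0.11 without fasted replicate 3) and 0.03 without fed replicate 1 and fasted replicate 3. Igf1 (-0.05) gave 0.03, 0.02 and 0.10 without fed replicate 1, without fasted replicate 3, and without both, and Eif4ebp2 (0.17) gave -0.10 with 32 mice.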
